A study of Mus musculus with 30 samples.

Results

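Undifferentiated iPSCs grown in serum/LIF were compared with the same cells in 2i/LIF. The genes described are the 13096 of 22477 in the deposited table that had at least 1 FPKM (fragments per kilobase of transcript, scaled to the mapped fragments of the library) in either condition. Just inside this limit were Mblac2, with 1.0007 FPKM in 2i/LIF, and Fstl3, with 1.0009 FPKM, and just outside it was Cap2, with 0.9993 FPKM in 2i/LIF. The cells were mouse secondary iPSCs that carry transgenes for OCT4, SOX2, KLF4 and c-MYC (OSKM) that dox switches on, a GFP reporter in the Nanog locus and a nuclear RFP that is always expressed, and the stock was kept on CF1 mouse embryonic fibroblast (MEF) feeders in serum with LIF. The 2i/LIF condition is the 0 h timepoint of the differentiation course, taken before 2i/LIF was withdrawn. The serum/LIF condition is cells of that timepoint that were dissociated and kept for 48 h in medium with serum and LIF and no dox (–dox). Both carry the same transgenes and neither received dox. Each condition had 2 replicates, 4 samples in all, and the authors combined the replicates into 1 value per gene. No spread between replicates, no test and no p-value can therefore be given for any difference, and genes are described by their values and by a ratio of at least 2-fold.

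The conditions differ in more than the inhibitors. The 2i/LIF medium is serum-free N2B27, while the other medium holds fetal bovine serum. By the methods, which were written for the colony-forming assay, the cells were moved from serum with LIF into 2i/LIF for at least 24 h, dissociated and seeded on gelatin before the 0 h timepoint. The serum/LIF cells were then dissociated once more and seeded at lower density on MEFs, and grew for 48 h. The surface under the cells taken for RNA is not stated. Medium, time in culture, density and growth surface therefore cannot be told apart.

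The name 2i stands for a pair of kinase inhibitors. PD0325901 blocks MEK, the kinase that activates ERK downstream of FGF receptors, and CHIR99021 blocks GSK3, which otherwise marks β-catenin, the mediator of canonical Wnt signaling, for destruction. LIF activates STAT3 and is present in both media. Mouse pluripotent cells self-renew in either medium. In 2i/LIF they are known for a uniform naive state and low DNA methylation, and in serum/LIF for active ERK signaling and a mixed population.

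Both conditions expressed the genes that define pluripotent cells. Pou5f1, which encodes OCT4, had 199 FPKM in 2i/LIF and 359.6 FPKM in serum/LIF, Sox2 had 248 and 224 FPKM, and Zfp42, also called Rex1, had 201 and 246 FPKM. All 20 genes of the naive pluripotency list and all 16 of the core list reached 1 FPKM. The 2i/LIF value also held RNA of genes typical of fibroblasts. Col1a1 and Col3a1, which encode fibrillar collagens, had 229 FPKM in 2i/LIF and 1.45 FPKM in serum/LIF, and 201 and 0.116 FPKM, respectively. Of 30 fibroblast genes, 28 reached 1 FPKM, 25 were at least 2-fold lower in serum/LIF and 0 were higher, and their values summed to 2036 FPKM in 2i/LIF and 449 FPKM in serum/LIF. Lum and Twist2 were listed at 0 in serum/LIF. In a bulk sample, fewer cells of a type and less RNA per cell cannot be told apart. Of 11 macrophage and blood genes found in the table, 2 reached 1 FPKM, and Ptprc, the marker of blood cells, was listed at 0 in 2i/LIF and at 0.0198 FPKM in serum/LIF. Of the endothelial list 5 reached 1 FPKM, of which 2, Esam and Plvap, were at least 2-fold higher in serum/LIF and 1, Vwf, was lower. Of the 3 that reached it in both conditions, 0 were higher and 1 was lower. The vascular cadherin Cdh5 stayed at or under 0.0764 FPKM.

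In all, 1571 genes (12.0% of those with at least 1 FPKM) were at least 2-fold higher in serum/LIF, 1322 genes (10.1%) were at least 2-fold lower, and 10203 genes (77.9%) lay within 2-fold. These shares of 12.0% and 10.1% apply beside each list count below that uses the same limit. At 8-fold the order turned, with 202 genes higher and 296 lower. The log2 ratio (serum/LIF over 2i/LIF) had a median of -0.01, and the middle 90% of genes lay between -1.60 and 1.70. The genes commonly used as references stayed near this median: 0 of 12 differed by 2-fold, and their median log2 ratio was 0.07. Genes with low values passed 2-fold most often. A gene that reached 1 FPKM in only 1 condition had to be higher in that condition, so counts with at least 1 FPKM in both are also given where they differ much. Between 1 and 2 FPKM in the higher condition, 25.1% were higher and 21.4% lower, whereas at 50 FPKM or more 4.97% were higher and 8.06% lower. Of the higher genes 44 were listed at 0 in 2i/LIF, with up to 9.35 FPKM in serum/LIF, and of the lower genes 32 were listed at 0 in serum/LIF, and these have no ratio. The number of reads is unknown. Steps between low values put a 2 kb gene at 1 FPKM at about 31.6 steps in 2i/LIF and 99.3 in serum/LIF, so low values were resolved more finely in serum/LIF.

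**Figure D1:**
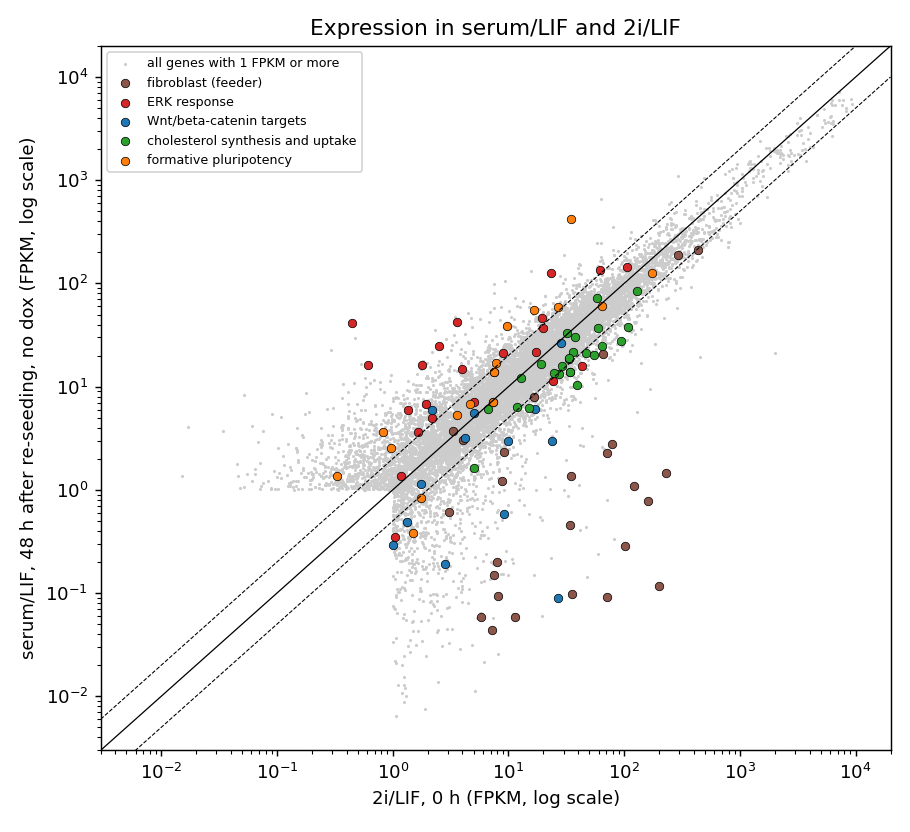
Each point is a gene, plotted by its value in 2i/LIF (x axis, FPKM, log scale) and in serum/LIF (y axis, FPKM, log scale), with 5 gene lists in color, the solid line at equal values and the dashed lines at 2-fold. Most fibroblast genes lie far below the diagonal, ERK response genes mostly above it, and genes of cholesterol synthesis mostly below it. Genes listed at 0 in either condition are not drawn.

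The ratios also followed the base composition of the transcripts. When the genes were put into 8 classes by the GC content of their longest annotated transcript, the median log2 ratio went from -0.27 in the class with the lowest GC content to 0.35 in the class with the highest. The share of genes at least 2-fold higher went from 4.41% to 24.5% over the same classes, and the share lower from 11.3% to 7.35%. Serum/LIF cells with dox (+dox) against the same 0 h value gave medians from -0.24 to 0.38, while the 24 h timepoint of withdrawal gave 0.05 in the lowest class and -0.09 in the highest. The part of base composition in the differences below was not tested beyond 1 alternative, in which the median of each class was subtracted. This alternative left 1407 genes higher and 1334 lower.

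**Figure D2:**
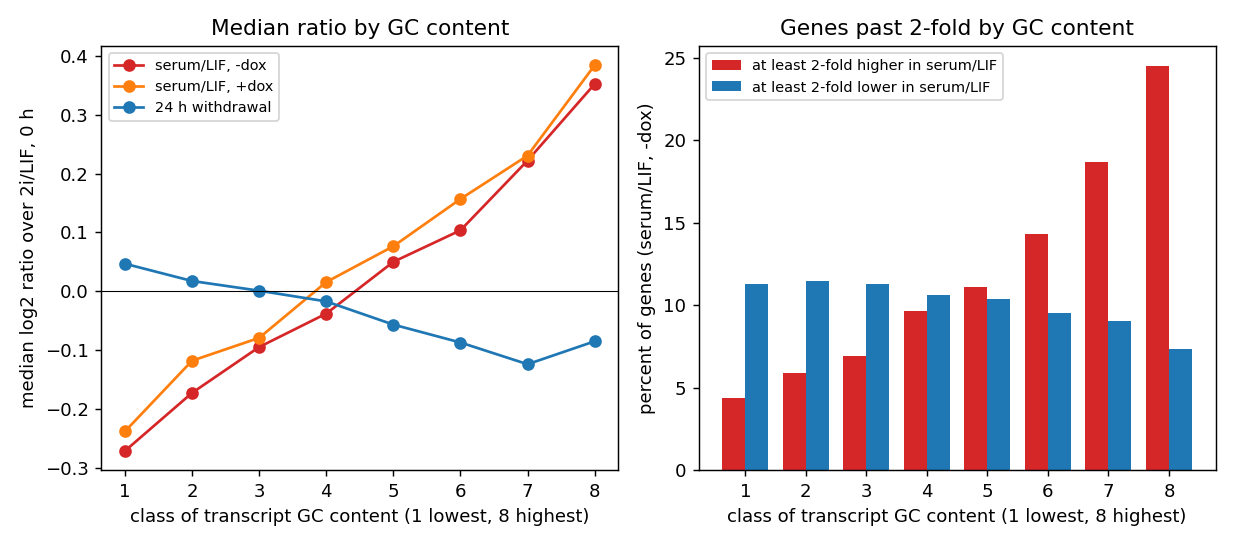
Left, median log2 ratio to the 2i/LIF value (y axis) in 8 equal classes of transcript GC content (x axis) for the serum/LIF –dox, serum/LIF +dox and 24 h withdrawal conditions. Right, percent of genes at least 2-fold higher or lower in serum/LIF –dox in each class; the higher share climbs from 4.41% to 24.5%.

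ERK response genes were mostly higher in serum/LIF. These genes are switched on by the pathway that PD0325901 blocks, and many encode its own feedback inhibitors. Of 27 genes, 24 reached 1 FPKM, 14 were at least 2-fold higher and 4 lower, and the median log2 ratio was 1.17, beside -0.01 over all genes. The largest ratio of any gene with at least 10 FPKM belonged to Spry4, a Sprouty inhibitor of receptor tyrosine kinase signaling. It had 0.446 FPKM in 2i/LIF and 41.5 FPKM in serum/LIF, which is 93.1-fold higher. Its relatives Spry1 (3.98 and 14.9 FPKM) and Spry2 (19.6 and 46.4 FPKM) were higher by less. The phosphatase genes Dusp6 and Dusp4, whose products inactivate ERK and related kinases, had 3.61 FPKM in 2i/LIF and 41.9 FPKM in serum/LIF, and 1.78 and 16.3 FPKM, respectively. Among the transcription factors of the list, Egr1 had 0.614 FPKM in 2i/LIF and 16.1 FPKM in serum/LIF, Etv4 had 23.2 and 126 FPKM and Myc had 2.53 and 24.5 FPKM. Myc counts any transgene reads that map to it, although no dox was given. The early gene Egr2 stayed under 1 FPKM in both conditions and Egr3 was listed at 0 in both, so not every member followed. The 4 genes lower in serum/LIF were Ccnd1 (43.2 and 15.7 FPKM), Ier3, Epha4 and Fosl1, with log2 ratios between -1.57 and -1.12. The fibroblast genes were lower in the same direction, from 2036 to 449 FPKM in sum, and their part in these 4 values was not tested. The related Spred1, Spred2 and Spred3 lay within 2-fold. In the +dox cells, also in serum/LIF, Spry4 had 11.5 FPKM, Dusp6 15.1 FPKM and Egr1 1.58 FPKM. At 24 h of withdrawal, where the inhibitors and LIF are both absent, the values were 13.9, 29.6 and 11.2 FPKM.

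Targets of Wnt/β-catenin held more lower than higher genes. Of the 14 of 21 target genes that reached 1 FPKM, 8 were at least 2-fold lower in serum/LIF and 1 was higher, and the median log2 ratio was -1.46. Of the 9 with at least 1 FPKM in both conditions, 3 were lower and 1 higher, with a median of -0.40. Over the 14 genes the median was -0.64 with 1 FPKM added. Column-total scaling changed which targets reached 1 FPKM, and the median of those that did was -0.79. Sp5, a zinc finger gene that responds directly to β-catenin, had 26.7 FPKM in 2i/LIF and 0.0892 FPKM in serum/LIF, a log2 ratio of -8.23. Axin2, a negative feedback regulator of the pathway, had 23.7 FPKM in 2i/LIF and 2.95 FPKM in serum/LIF. The homeobox gene Cdx1 had 9.16 FPKM in 2i/LIF and 0.585 FPKM in serum/LIF, and T, which encodes brachyury, had 2.85 and 0.191 FPKM. The T-box and Cdx genes also mark primitive streak cells, as described further on. The secreted inhibitor Notum (16.9 and 6.03 FPKM) and the receptor Tnfrsf19 (9.82 and 3.0 FPKM) were lower too. Lef1 and Tcf7, which encode DNA-binding partners of β-catenin, were within 2-fold, with 7.40 FPKM in 2i/LIF and 7.03 FPKM in serum/LIF for Lef1 and 28.7 and 26.4 FPKM for Tcf7. Ascl2 was the member that was higher, with 2.18 FPKM in 2i/LIF and 5.94 FPKM in serum/LIF. Sp5, Axin2 and T were also low in the +dox cells, at 0.218, 1.04 and 0.314 FPKM, and at 24 h of withdrawal, at 0.185, 5.0 and 0.0814 FPKM. When cells of 48 h of withdrawal were put into serum/LIF without dox, Sp5 had 8.48 FPKM.

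The pathway's own components were counted separately. Of 19 with at least 1 FPKM, 2 (10.5%) were at least 2-fold higher and 3 (15.8%) lower, beside 12.0% and 10.1% over all genes. The β-catenin gene Ctnnb1 had 156 FPKM in 2i/LIF and 165 FPKM in serum/LIF. Porcn, the enzyme that attaches a lipid to Wnt proteins, had 2.52 FPKM in 2i/LIF and 17.7 FPKM in serum/LIF, and the receptor Fzd7 had 11.4 and 32.2 FPKM. Wls, which carries Wnt proteins to the cell surface, went the other way with 13.9 FPKM in 2i/LIF and 1.46 FPKM in serum/LIF, and Fzd1 and Sfrp1 were lower with log2 ratios of -2.17 and -1.26. The fibroblast genes were lower in the same direction, from 2036 to 449 FPKM in sum, and their part in these 3 values was not tested.

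The promoters of the Wnt targets were searched for CTTTGAT, a core of the motif bound by TCF/LEF factors, on both strands of the window from 250 bases before to 50 bases after each RefSeq start site. Of the 14 targets with at least 1 FPKM, 9 had a promoter in the RefSeq table (build GRCm38.p6, the same assembly as mm10) and 2 of these held the motif, Sp5 and Tnfrsf19. Over all genes in that table the share was 4.29%. The Sp5 promoter is shown because Sp5 had the lowest ratio of the list. It lies at chr2:70474673-70474972 on the plus strand, and capitals mark the motif.
Sp5: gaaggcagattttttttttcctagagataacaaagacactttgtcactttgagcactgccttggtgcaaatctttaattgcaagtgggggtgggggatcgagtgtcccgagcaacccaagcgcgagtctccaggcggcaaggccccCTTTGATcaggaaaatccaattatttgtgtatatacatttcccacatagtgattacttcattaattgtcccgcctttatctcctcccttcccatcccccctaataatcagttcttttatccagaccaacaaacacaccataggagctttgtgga
A match describes the letters of this window only.

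The core and formative lists held more higher than lower genes, while the naive list held as many higher as lower. Naive factors are those of the preimplantation epiblast, and formative genes come on as pluripotent cells leave that state. In the naive list 4 of 20 genes were at least 2-fold higher, 4 were lower, and the median log2 ratio was -0.05. Dppa3, also called Stella, which protects methylation marks in the egg and early embryo, had 168 FPKM in 2i/LIF and 9.44 FPKM in serum/LIF, the lowest ratio of the list at -4.16. Tfcp2l1 (124 and 32.1 FPKM), Nr5a2 (48.0 and 14.8 FPKM) and Prdm14 (18.8 and 7.03 FPKM) were the other 3 that were lower. Prdm14 encodes a repressor of the de novo methyltransferase genes. Nanog had 227 FPKM in 2i/LIF and 120.3 FPKM in serum/LIF, a log2 ratio of -0.92 that does not reach 2-fold, and Klf2 had -0.61. Esrrb, which encodes an orphan nuclear receptor of the naive network, was nearly equal, with 149.9 FPKM in 2i/LIF and 151 FPKM in serum/LIF, and so were Klf4 and Tbx3, with log2 ratios of -0.13 and 0.17. The 4 higher genes were Eras, Tdgf1, Gbx2 and Zfp57. Eras, an X-linked Ras family gene of embryonic stem cells, was the extreme case with 0.472 FPKM in 2i/LIF and 29.6 FPKM in serum/LIF. After column totals were used for scaling, the median of the naive list was 0.19, with 6 genes higher and 4 lower.

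In the core list 6 of 16 genes were at least 2-fold higher and 0 lower, with a median log2 ratio of 0.46. Utf1, a chromatin factor of pluripotent cells, had 62.5 FPKM in 2i/LIF and 653 FPKM in serum/LIF. Dppa2 and Dppa4, partners in a chromatin complex, had 15.4 FPKM in 2i/LIF and 65.0 FPKM in serum/LIF, and 40.6 and 127 FPKM, respectively. Lin28a and Lin28b, which encode RNA-binding proteins, were also higher, with log2 ratios of 1.11 and 1.12. Sox2, Sall4 and Fgf4 were near equal, with log2 ratios of -0.14, -0.09 and 0.03.

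In the formative list 16 of the 18 genes found in the table reached 1 FPKM, 8 were at least 2-fold higher and 2 lower, and the median log2 ratio was 1.01. Of the 11 with at least 1 FPKM in both conditions, 5 were higher and 0 lower, with a median of 0.90. With GC classes centred the median was 0.67. Dnmt3l, which encodes a cofactor of the de novo methyltransferases, had 34.7 FPKM in 2i/LIF and 421 FPKM in serum/LIF. Otx2, a homeobox factor of the epiblast after implantation, had 16.6 FPKM in 2i/LIF and 55.2 FPKM in serum/LIF, and the POU factor gene Pou3f1 had 0.827 and 3.64 FPKM. Not all formative genes followed, since Fgf5, the classic marker of the postimplantation epiblast, stayed at 0.164 and 0.287 FPKM. At 24 h of withdrawal Fgf5 stood at 10.3 FPKM, Otx2 at 79.3 FPKM and Pou3f1 at 27.9 FPKM. Cdh2 and Sall2 were the 2 lower genes. The fibroblast genes were lower too, from 2036 to 449 FPKM in sum, and their part in these 2 values was not tested.

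Of 21 genes that write, read or erase DNA methylation, 7 were at least 2-fold higher, 0 were 2-fold lower and 14 lay within 2-fold, with a median log2 ratio of 0.34. Of the 7, Dnmt3a, Dnmt3b and Dnmt3l were already counted in the formative list and Zfp57 in the naive list. The de novo methyltransferase Dnmt3a had 9.71 FPKM in 2i/LIF and 38.3 FPKM in serum/LIF and Dnmt3b had 26.8 and 59.0 FPKM. The maintenance enzyme Dnmt1 (63.9 and 64.4 FPKM) and its recruiter Uhrf1 (159 and 143 FPKM) were nearly equal. Tet1, which oxidizes methylcytosine, was higher as well, with 30.3 FPKM in 2i/LIF and 64.2 FPKM in serum/LIF, whereas Tet2 and Tet3 were within 2-fold. Zfp57, which holds methylation at imprinted loci, had 139 FPKM in 2i/LIF and 287 FPKM in serum/LIF, and Gadd45a and Gadd45b had log2 ratios of 1.83 and 1.10. In +dox cells the values of Dnmt3a, Dnmt3b and Dnmt3l were 31.0, 61.3 and 306 FPKM. At 24 h of withdrawal Dnmt3a and Dnmt3b were higher still, at 179.7 and 259.5 FPKM.

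**Figure D3:**
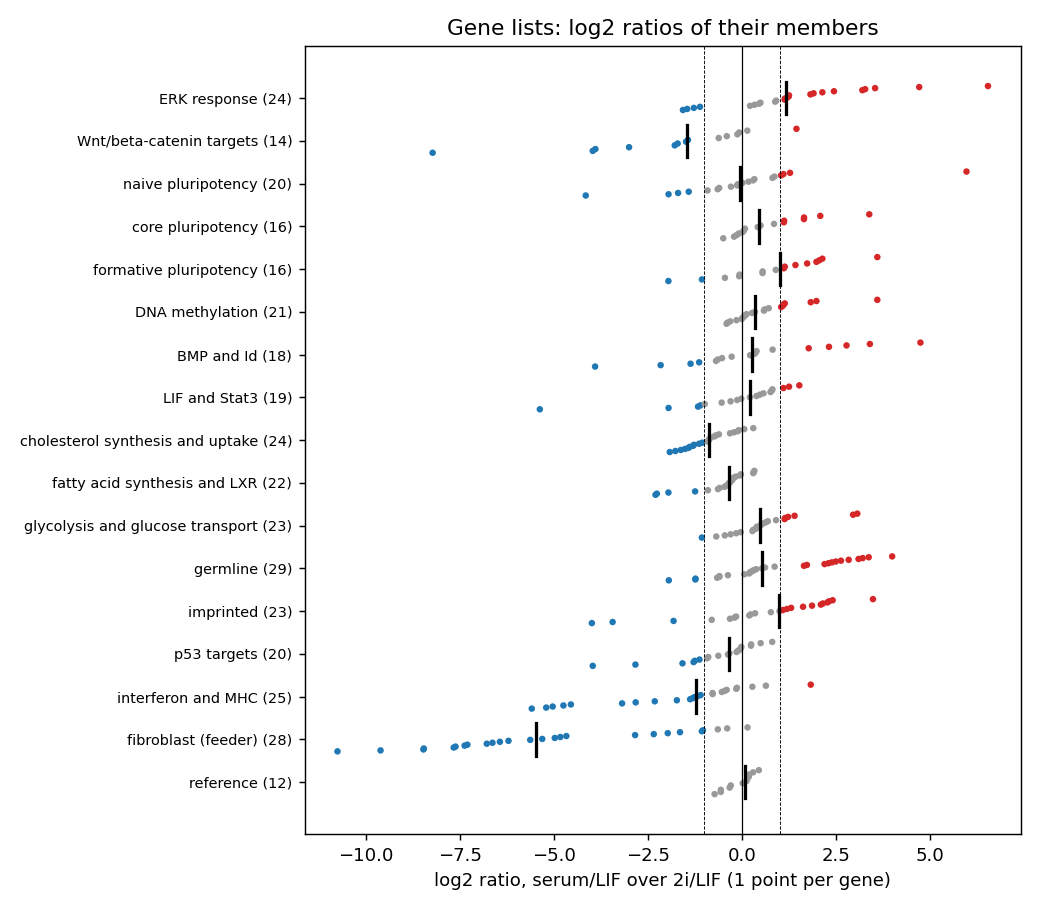
Log2 ratio, serum/LIF over 2i/LIF (x axis), for every gene with at least 1 FPKM and a value above 0 in both conditions, by gene list (rows, number of genes with at least 1 FPKM in brackets). Red points are at least 2-fold higher, blue at least 2-fold lower, gray within 2-fold, black bars are list medians, and the thin line is the median of all genes; ERK response sits to the right and Wnt/β-catenin targets, cholesterol synthesis and fibroblast genes to the left.

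LIF is in both media. Of 19 genes of its pathway, 3 (15.8%) were at least 2-fold higher and 4 (21.1%) lower. Over all genes the shares were 12.0% and 10.1%, and the list's median log2 ratio was 0.21. Stat3 itself had 30.7 FPKM in 2i/LIF and 30.3 FPKM in serum/LIF and its feedback inhibitor Socs3 had 43.5 and 73.6 FPKM. Pim3, a kinase gene that responds to STAT3, had 42.6 FPKM in 2i/LIF and 122 FPKM in serum/LIF, and Bcl3 had 93.2 and 41.4 FPKM. Osmr, the oncostatin M receptor, had 4.53 FPKM in 2i/LIF and 0.109 FPKM in serum/LIF. Fibroblasts express Osmr too, and the fibroblast genes were lower in the same direction, from 2036 to 449 FPKM in sum, and their part in this result was not tested.

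Serum carries BMP activity, and Id genes are the best known readout of it. Of 18 genes in the BMP list with at least 1 FPKM, 5 (27.8%) were at least 2-fold higher and 4 (22.2%) lower. Over all genes the shares were 12.0% and 10.1%, and the list's median log2 ratio was 0.27. Id1 had 8.55 FPKM in 2i/LIF and 58.7 FPKM in serum/LIF and Id2 had 6.96 and 23.8 FPKM, while Id3 had 4.18 and 5.38 FPKM. Id4 was lower, with 7.95 FPKM in 2i/LIF and 1.77 FPKM in serum/LIF. The ligand gene Bmp4 had 0.840 FPKM in 2i/LIF and 8.87 FPKM in serum/LIF, Hand1, a gene of extraembryonic mesoderm, had 0.148 and 3.98 FPKM, and Dusp9, a phosphatase of ERK known to respond to BMP, had 13.5 and 67.0 FPKM. The antagonist Grem1 and the receptors Bmpr2 and Acvr1 were lower, with log2 ratios of -3.91, -1.37 and -1.14. Fibroblasts express Grem1, and their listed genes were lower in the same comparison (25 of 28); their part was not tested. At 24 h of withdrawal, without serum, Id1 had 16.2 FPKM and Id3 had 29.5 FPKM.

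Nodal and activin genes showed no common direction, with 3 of 19 (15.8%) higher, 3 (15.8%) lower and a median log2 ratio of -0.16. Over all genes the shares were 12.0% and 10.1%. Nodal was nearly equal at 30.5 and 30.2 FPKM. Its coreceptor Tdgf1 had 253 FPKM in 2i/LIF and 612 FPKM in serum/LIF, while its target Lefty2 had 57.0 and 22.1 FPKM and Lefty1 had 15.0 and 25.2 FPKM. Inhba, which encodes an activin subunit, and the activin antagonist Fst were lower, with log2 ratios of -4.21 and -2.44. Fibroblasts express both, and the fibroblast genes were lower too, from 2036 to 449 FPKM in sum; their part was not tested. Foxh1 and Inhbb were higher.

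Genes of cholesterol synthesis and uptake past 2-fold were all lower in serum/LIF. SREBP2, encoded by Srebf2, is the factor that activates these genes when sterols are scarce. Of 25 genes found in the table, 24 reached 1 FPKM, 22 had a log2 ratio below 0, 10 were at least 2-fold lower, 0 were higher, and the median log2 ratio was -0.88. Hmgcs1, which encodes an early enzyme of the pathway, had 108 FPKM in 2i/LIF and 37.7 FPKM in serum/LIF. Further down the pathway, Sqle had 54.8 FPKM in 2i/LIF and 20.4 FPKM in serum/LIF and Msmo1 had 93.7 and 27.5 FPKM. Insig1, a sterol-responsive brake on SREBP2, had 64.4 FPKM in 2i/LIF and 24.6 FPKM in serum/LIF. Only Cyp51 and Srebf2 were above 0, with log2 ratios of 0.06 and 0.30. At 24 h of withdrawal, also in N2B27, Hmgcs1 had 196 FPKM and Sqle 107 FPKM, which is above the 2i/LIF values for each. In the +dox cells in serum/LIF the values were 63.7 and 28.4 FPKM, between those of the –dox cells and 2i/LIF. The count of lower genes was 8 with column-total scaling and 9 with GC classes centred.

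The promoters of the list were searched in the same windows for TCACNCCAC, a core of the sterol regulatory element to which SREBP proteins bind. Of the 24 genes, 17 had a promoter in the RefSeq table and 1 held the motif, Hmgcs1, beside 1.44% of all genes in the table. The Hmgcs1 promoter is shown as that match. It lies at chr13:119690101-119690400 (GRCm38.p6, plus strand), with the motif in capitals.
Hmgcs1: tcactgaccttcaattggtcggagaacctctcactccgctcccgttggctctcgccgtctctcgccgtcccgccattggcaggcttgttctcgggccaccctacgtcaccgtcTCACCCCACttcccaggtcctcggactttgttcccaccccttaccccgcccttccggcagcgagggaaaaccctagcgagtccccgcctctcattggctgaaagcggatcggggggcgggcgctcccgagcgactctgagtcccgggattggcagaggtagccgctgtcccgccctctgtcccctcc
Genes without these letters in the window may hold the element in another form or place, which was not examined.

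Of 22 genes of fatty acid synthesis, 4 were at least 2-fold lower and 0 higher, 19 had a log2 ratio below 0, and the median was -0.33. The desaturases Scd1 and Scd2 stood out, with 81.2 FPKM in 2i/LIF and 20.9 FPKM in serum/LIF, and 222 and 46.2 FPKM, respectively. Fabp5, a fatty acid carrier, had 32.4 FPKM in 2i/LIF and 6.59 FPKM in serum/LIF, and Lpl was the fourth. Fasn, the synthase itself, lay within 2-fold with 76.6 FPKM in 2i/LIF and 64.1 FPKM in serum/LIF, as did Srebf1 with a log2 ratio of -0.31. With column-total scaling the median was -0.10.

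Of 23 glycolysis genes, 6 were at least 2-fold higher (12.0% over all genes), 1 was lower and 16 lay within 2-fold, with a median log2 ratio of 0.49. Pdk1, a kinase that keeps pyruvate out of mitochondria, had 15.6 FPKM in 2i/LIF and 131 FPKM in serum/LIF, and the enolase gene Eno3 had 4.19 and 32.5 FPKM. The glucose transporter Slc2a1 had 33.5 FPKM in 2i/LIF and 73.5 FPKM in serum/LIF and phosphoglycerate kinase Pgk1 had 184 and 407 FPKM. The abundant enzymes Aldoa, Gapdh and Pkm were within 2-fold, with log2 ratios of 0.69, 0.29 and 0.63. The lactate exporter Slc16a3 was higher and the related Slc16a1 lower, with log2 ratios of 1.40 and -1.07. Txnip, a glucose-responsive inhibitor of glucose uptake, had 293 FPKM in 2i/LIF and 1091 FPKM in serum/LIF. It belongs to the list of metal, iron and antioxidant genes, whose median was -0.04. Of these 24 genes, 3 (12.5%) were higher and 2 (8.33%) lower, near the 12.0% and 10.1% over all genes. The metallothioneins Mt1 and Mt2 were within 2-fold.

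Amino acid metabolism differed in single genes. Tdh, the threonine dehydrogenase on which mouse embryonic stem cells depend, had 301 FPKM in 2i/LIF and 90.4 FPKM in serum/LIF, and Bhmt had 10.1 and 2.47 FPKM. Gldc, which cleaves glycine, had 51.2 FPKM in 2i/LIF and 108 FPKM in serum/LIF. These were the only 3 of 18 threonine, serine, glycine and one-carbon genes past 2-fold, and the list's median log2 ratio was -0.38. Of 22 genes of the amino acid response, 4 (18.2%) were higher and 0 lower, with a median of 0.25. Over all genes the shares were 12.0% and 10.1%. Chac1 had 13.4 FPKM in 2i/LIF and 42.8 FPKM in serum/LIF, while Atf4, the central factor, and its target Asns had log2 ratios of 0.33 and -0.85. Ribosomal protein genes lay within 2-fold in 81 of 85 cases. Of the others, 1 was higher and 3 were lower, and the median over all 85 was -0.30; it was -0.06 with column-total scaling. Many of these genes have near-identical processed copies, so their values are uncertain.

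Many germline genes are silenced by promoter methylation in somatic cells. Of 29 with at least 1 FPKM, 12 were at least 2-fold higher and 3 lower, with a median log2 ratio of 0.53. Of the 23 with at least 1 FPKM in both conditions, 7 were higher and 3 lower, with a median of 0.31, and of the 14 with at least 10 FPKM in the higher one, 3 were higher and 2 lower. Mael, a factor of the piRNA pathway, had 3.41 FPKM in 2i/LIF and 31.5 FPKM in serum/LIF. Stra8, the gatekeeper of meiosis, had 1.79 FPKM in 2i/LIF and 15.3 FPKM in serum/LIF, and Taf7l, a germ cell form of a TFIID subunit, had 0.573 and 5.92 FPKM. The piRNA genes Piwil2 and Mov10l1 were also higher, with 1.93 FPKM in 2i/LIF and 8.85 FPKM in serum/LIF, and 1.58 and 8.89 FPKM, respectively. Ddx4, the Vasa helicase, had 1.23 FPKM in 2i/LIF and 6.44 FPKM in serum/LIF. Dazl and Nanos3, both of early germ cells, were lower, with 39.2 FPKM in 2i/LIF and 16.6 FPKM in serum/LIF, and 8.04 and 2.09 FPKM, respectively, and the third was Tuba3a, whose sequence is close to that of Tuba3b. Synaptonemal complex genes such as Sycp3 were within 2-fold. The retinoid list, which holds Stra8 too, had 3 of 13 genes higher and 3 lower. Rarg, a retinoic acid receptor, had 7.57 FPKM in 2i/LIF and 80.7 FPKM in serum/LIF, and Aldh1a2, which makes retinoic acid, had 4.87 and 0.837 FPKM.

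Imprinted genes are expressed from the chromosome of one parent. Of 23 with at least 1 FPKM, 11 were at least 2-fold higher and 3 lower, and the median log2 ratio was 1.00. Of the 19 with at least 1 FPKM in both conditions, 8 were higher and 2 lower, with a median of 0.77. Peg10 had 9.42 FPKM in 2i/LIF and 105 FPKM in serum/LIF and its neighbor Sgce had 4.23 and 18.8 FPKM. The long noncoding RNA Meg3 had 58.1 FPKM in 2i/LIF and 248 FPKM in serum/LIF, Snrpn had 58.1 and 143 FPKM and H19 had 82.4 and 189 FPKM. Igf2, the growth factor gene next to H19, went the other way with 43.5 FPKM in 2i/LIF and 4.01 FPKM in serum/LIF, and so did the zinc finger gene Plagl1, with 52.8 and 3.32 FPKM. Plagl1 and Igf2 at 24 h of withdrawal stood at 4.44 and 2.75 FPKM. Fibroblasts are known to express both, and fibroblast genes were lower in the same direction in serum/LIF and at 24 h, where their sum was 505 FPKM; their part in these values was not tested.

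Polycomb genes lay mostly within 2-fold, with 3 of 28 (10.7%) higher, 1 (3.57%) lower and a median log2 ratio of 0.06. Over all genes 12.0% were higher, 10.1% lower and 77.9% within 2-fold. Phf19, an accessory subunit of the PRC2 complex, had 0.778 FPKM in 2i/LIF and 9.42 FPKM in serum/LIF, and Cbx7 had 44.0 and 91.9 FPKM. The catalytic subunit Ezh2 had 89.2 FPKM in 2i/LIF and 89.6 FPKM in serum/LIF.

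**Figure D4:**
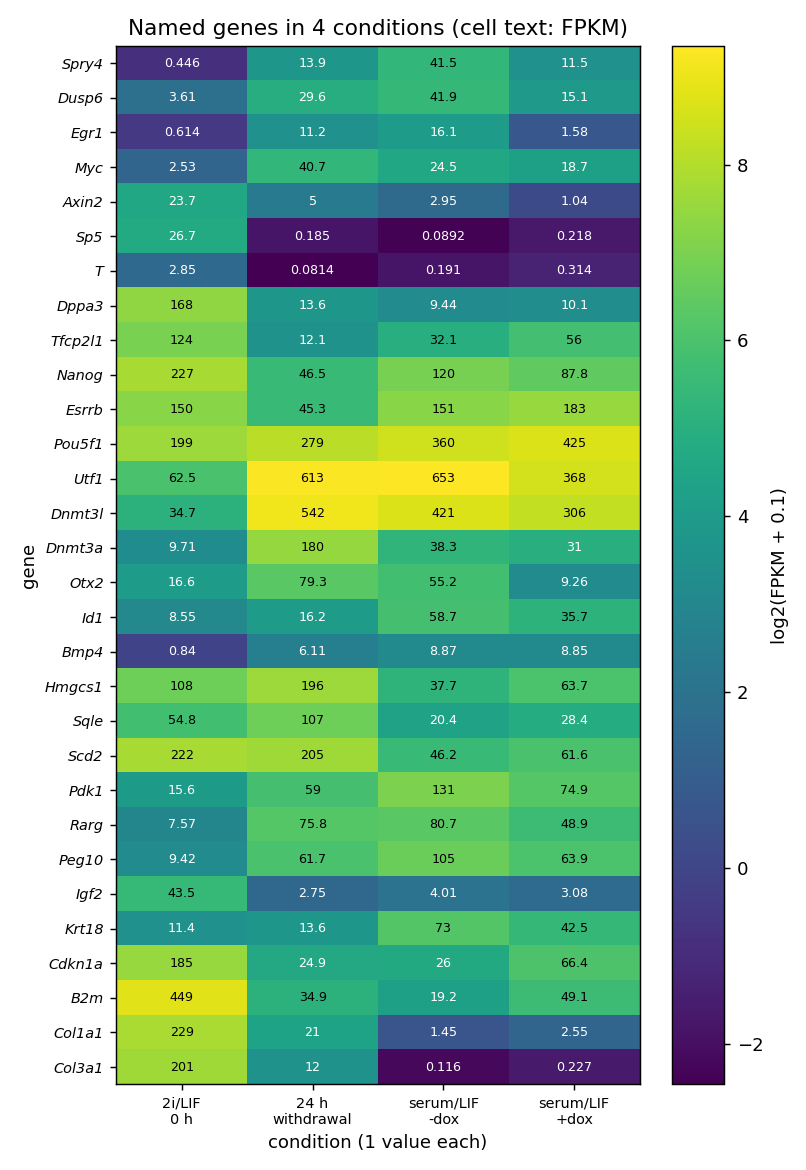
FPKM of 30 named genes (rows) in 2i/LIF at 0 h, at 24 h of withdrawal and in serum/LIF –dox and +dox (columns), 1 value per condition, colored by log2(FPKM + 0.1) and printed in each cell. Dusp6 goes from 3.61 FPKM in 2i/LIF to 41.9 FPKM in serum/LIF –dox, Axin2 from 23.7 to 2.95 FPKM, and Col3a1 from 201 to 0.116 FPKM.

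Epithelial genes held more higher than lower members. Of 23 adhesion and epithelial genes, 8 were at least 2-fold higher and 4 lower, with a median log2 ratio of 0.40. The keratins Krt18 and Krt19 had 11.4 FPKM in 2i/LIF and 73.0 FPKM in serum/LIF, and 2.89 and 29.1 FPKM, respectively. Epcam, a surface protein of epithelia and pluripotent cells, had 40.5 FPKM in 2i/LIF and 153 FPKM in serum/LIF, and the splicing regulator Esrp1 had 2.45 and 16.3 FPKM. E-cadherin, encoded by Cdh1, was nearly equal at 114 and 112 FPKM. The 4 lower genes were Snai1, Snai2, Zeb1 and Zeb2, repressors of the epithelial program that fibroblasts express. Snai2 had 1.97 FPKM in 2i/LIF and 0.158 FPKM in serum/LIF and Zeb2 had 1.84 and 0.207 FPKM. The summed fibroblast values moved the same way as these 4, and their part was not tested.

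Of the primitive streak, neurectoderm and primitive endoderm lists, fewer members reached 1 FPKM than did not. For primitive streak and mesendoderm 5 of 18 reached it, 3 were at least 2-fold lower and 0 higher. Of the 3 that reached it in both conditions, 1 was lower and 0 were higher. Gsc, a gene of the anterior streak, had 8.97 FPKM in 2i/LIF and 0.153 FPKM in serum/LIF, beside T given above and Snai1, while Mixl1, Foxa2 and Mesp1 stayed under 1 FPKM. For neurectoderm 9 of 22 reached it, 2 were higher and 4 lower, and of the 5 that reached it in both conditions 0 were higher and 2 lower. Pax6 had 0.263 FPKM in 2i/LIF and 1.98 FPKM in serum/LIF and Sox1 1.02 and 1.21 FPKM. For primitive endoderm 8 of 22 did, 1 of which, Dab2, was lower, and Gata6 and Sox17 stayed under 1 FPKM. Of the trophoblast list 16 of 20 reached it, 7 were higher and 5 lower. The higher ones included the keratins Krt8, Krt18 and Krt19 and also Gata3 (0.319 and 2.08 FPKM). The lower ones included the keratin Krt7, with a log2 ratio of -1.30, Cdx2, Tfap2c (38.3 and 12.2 FPKM) and Tfap2a. Elf5, which marks trophoblast stem cells, stayed at or under 0.0859 FPKM. Of 17 two-cell-like genes found in the table, only Pramel6 and Pramel7 reached 1 FPKM, and both were lower, with 4.53 FPKM in 2i/LIF and 0.587 FPKM in serum/LIF for Pramel7. The Zscan4 copies were listed at 0 in 2i/LIF and at up to 0.197 FPKM in serum/LIF.

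Cell cycle genes of G1 were evenly split, with 6 of 29 (20.7%) higher, 6 (20.7%) lower and a median log2 ratio of 0.02. Over all genes the shares were 12.0% and 10.1%. Ccnd3 and Ccne1 were higher, with 88.6 FPKM in 2i/LIF and 204 FPKM in serum/LIF, and 38.2 and 96.2 FPKM, respectively. Ccnd2 had 6.03 FPKM in 2i/LIF and 0.364 FPKM in serum/LIF. The CDK inhibitor p21, encoded by Cdkn1a, had 185 FPKM in 2i/LIF and 26.0 FPKM in serum/LIF, and Cdkn2b had 8.18 and 1.84 FPKM. Cdkn1a is also a target of p53. Of 20 p53 targets, 6 (30%) were lower and 0 higher, beside 10.1% and 12.0% over all genes. Their median was -0.35, or -0.12 with column-total scaling. Ccng1, Trp53inp1 and Plk2 were among the lower ones, with log2 ratios of -1.26, -1.29 and -1.58. Mdm2 and Bax were within 2-fold, with log2 ratios of -0.63 and -0.06. In the +dox cells Cdkn1a had 66.4 FPKM. Fibroblasts express Cdkn1a, Plk2, Ccnd2 and Cdkn2b, and 25 of 28 fibroblast genes were lower in the same comparison, and their part in these values was not tested.

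The fibroblast list had a median log2 ratio of -5.47 over the 26 genes above 0 in both conditions. Of the 13 with at least 1 FPKM in both, 10 were lower and 0 higher, with a median of -1.97. The proteoglycan Dcn had 71.0 FPKM in 2i/LIF and 0.0908 FPKM in serum/LIF, the matrix protein Postn had 102 and 0.289 FPKM and the crosslinking enzyme Lox had 121 and 1.09 FPKM. Fn1 and Sparc, which other cell types also express, made up most of what was left in serum/LIF, with 294 FPKM in 2i/LIF and 188 FPKM in serum/LIF for Fn1 and 431 and 209.8 FPKM for Sparc. Thy1 and Twist1 were within 2-fold. At 24 h of withdrawal Col1a1 had 21.0 FPKM and Col3a1 12.0 FPKM, and in +dox cells 2.55 and 0.227 FPKM. The 2i/LIF value was thus the highest of these 4 conditions for both collagens.

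Other groups held more lower than higher genes. Of 22 chemokine and secreted factor genes, 14 were lower and 2 higher, with a median of -2.32. Of the 11 with at least 1 FPKM in both conditions, 4 were lower and 2 higher, with a median of -0.50. Ccl2 had 70.7 FPKM in 2i/LIF and 0.805 FPKM in serum/LIF and Cxcl5 had 81.1 and 0.335 FPKM, while Apoe was within 2-fold. Of 25 interferon and MHC genes, 15 were lower and 1 higher, with a median of -1.22. With at least 1 FPKM in both conditions, 8 of 17 were lower and 1 higher, with a median of -0.78. B2m, the light chain of MHC class I, had 449 FPKM in 2i/LIF and 19.2 FPKM in serum/LIF, Isg15 had 9.44 and 0.256 FPKM and the class I gene H2-D1, which has close relatives, had 55.5 and 7.82 FPKM. Bst2, also called tetherin, was the exception with 39.5 FPKM in 2i/LIF and 140.4 FPKM in serum/LIF. Of 12 Hox genes with at least 1 FPKM, 10 were lower and 0 higher, among them Hoxc4 with 8.0 FPKM in 2i/LIF and 2.60 FPKM in serum/LIF. In both conditions 3 Hox genes reached 1 FPKM, of which 2 were lower. Of 25 actin, SRF and YAP target genes, 8 were lower and 2 higher around a median of 0.01. The lower ones included Vim (382 and 91.8 FPKM), Thbs1, Ctgf and Cyr61. For all 4 groups the fibroblast genes moved in the same direction, with 25 of 28 lower and a sum of 2036 against 449 FPKM, and their part in these results was not tested. The basement membrane list, which includes genes that iPSCs express, had 2 of 19 higher and 4 lower and a median of 0.12. Col18a1 and Hspg2 were the 2 higher genes, with 28.2 FPKM in 2i/LIF and 80.6 FPKM in serum/LIF, and 17.3 and 47.5 FPKM, respectively, while Lamc1 was nearly equal at 125 and 123 FPKM.

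Where the larger of the values was 10 FPKM or more and neither was 0, the 15 genes with the highest ratios were Spry4, Halr1, Eras, Myrf, Prss50, Egr1, Chrna9, Enox1, 2610528J11Rik, Pla2g7, Cacng6, Kirrel2, Gm28592, Nphs1 and Igsf9. Their log2 ratios ran from 6.54 to 3.74. The noncoding RNA Halr1, beside the Hoxa cluster on chromosome 6 (52102949 to 52113684, mm10), had 0.294 FPKM in 2i/LIF and 22.5 FPKM in serum/LIF. Nphs1, the gene for nephrin of the kidney filter, and Kirrel2, which encodes the related protein NEPH3, lie side by side on chromosome 7 (30458315 to 30487223 and 30447534 to 30457690). They had 3.44 FPKM in 2i/LIF and 47.6 FPKM in serum/LIF, and 2.30 and 35.8 FPKM, respectively. In +dox cells the values were 23.7 FPKM for Nphs1 and 20.7 FPKM for Kirrel2. Myrf, a membrane-bound transcription factor, had 0.536 FPKM in 2i/LIF and 16.7 FPKM in serum/LIF. The 15 with the lowest ratios were Col3a1, Dcn, Thbs2, Postn, Ptx3, Spic, Sp5, Cxcl1, Cxcl5, Col1a2, Col6a1, Lcn2, Col1a1, Ccdc80 and Lox, with log2 ratios from -10.76 to -6.79. Of these, 8 are in the fibroblast list and 3 in the chemokine and secreted list, while Ptx3, Spic, Sp5 and Ccdc80 are in neither. Spic, a transcription factor gene of the Ets family on chromosome 10 (88674772 to 88685015), had 19.4 FPKM in 2i/LIF and 0.0601 FPKM in serum/LIF, with 0.0483 FPKM in +dox cells and 1.85 FPKM at 24 h of withdrawal.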

How the data were processed

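Polyadenylated RNA was sequenced by the authors, who per the submitters' processing notes and the methods used TopHat 2.0.14 for mapping (mm10) and Cufflinks 2.2.1 with Gencode models. Cuffdiff combined the 2 replicates of each condition, and the authors deposited 1 FPKM value per gene and condition; the library scaling and use of strand are not given in the sources used here. The deposited columns of the authors' calls (dynamic and dox-responsive genes) were not used. Values summed to 784702 FPKM in 2i/LIF and 665942 FPKM in serum/LIF. From these values, plain ratios were computed without a pseudocount for genes with at least 1 FPKM in either condition, and a gene was counted past 2-fold. Genes at 0 in either condition were counted but left out of medians. Since each condition has 1 value, no test was run. The genes, the gene lists (from general knowledge) and the comparison itself were chosen with earlier results of these data known. Named genes are list members and the 15 highest and 15 lowest ratios at 10 FPKM or more. Some list members are counted but not reported by name. Any other gene was picked once its values were known, and the text says so. Positions and GC content came from Gencode M21, in which 94.7% of symbols had a single position, and promoters from RefSeq. Of the names, 27 had been turned into dates and are not named. Alternatives were tried for the pseudocount, the minimum, the scaling, the fold and, chosen after seeing the data, GC content. The counting rule was tested on simulated data. Python 3.11.15, numpy 2.4.6, pandas 2.3.3 and matplotlib 3.10.9 were used.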

Additional observations from a re-analysis of the deposited data

How the results depend on the processing

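The counts of 1571 higher and 1322 lower genes depended on the cut-offs. They were 2812 and 2590 at 1.5-fold, 521 and 502 at 4-fold, 4614 and 3077 with no minimum value, 939 and 745 with at least 1 FPKM in both conditions, 531 and 503 with at least 10 FPKM in the higher condition, and 1003 and 901 with 1 FPKM added. Adding 0.1 FPKM, median-ratio scaling and the GC centring chosen after seeing the data kept both counts within 1.5 times. Scaling to the column totals shifted the median log2 ratio of all genes to 0.24 and gave 2237 higher and 939 lower genes, so that 70.4% of the genes past 2-fold were higher instead of 54.3%. Under that scaling the set of neurectoderm genes that reached 1 FPKM was not the same. Their median went from -0.90 to 0.48, which mixes the scaling with the change of members. The direction of no named gene past 2-fold reversed under any alternative in which it kept a value. No paired analysis was possible because the table holds 1 combined value per condition, and no replicate could be left out. With 1 value per condition, differences near 2-fold and values near 1 FPKM cannot be set against replicate error.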

Other observations

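The genes in these paragraphs were chosen after their values were seen. Replication-dependent histone genes, whose mature mRNAs mostly lack poly(A) tails, were mostly lower in serum/LIF. Of the 55 with at least 1 FPKM, 32 were at least 2-fold lower and 2 higher, with a median log2 ratio of -1.12, beside 10.1% and 12.0% over all genes. Their values summed to 7049 FPKM in 2i/LIF, 3984 FPKM in serum/LIF, 3096 FPKM in the +dox cells and 5356 FPKM at 24 h of withdrawal. The RNA was selected for poly(A) tails and many histone genes are near copies of each other, so these values are uncertain, and the part of the selection was not tested. Of these genes 48 lie on chromosome 13, which had the lowest median log2 ratio of the chromosomes compared, -0.20, with 19.7% of genes lower and 7.26% higher. Without the histone genes its median was -0.13, with 15.2% lower and 7.60% higher. The other chromosomes had medians between -0.15 and 0.12.

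Single genes with large ratios belonged to several settings. Aire, the regulator of self-antigen expression in the thymus, had 7.46 FPKM in 2i/LIF and 98.5 FPKM in serum/LIF. It lies on chromosome 10 (78030022 to 78043610) near Icosl (78069302 to 78083913), which had 2.21 FPKM in 2i/LIF and 10.3 FPKM in serum/LIF, and near Dnmt3l. Als2cl and Prss42 lie at the Prss50 and Tdgf1 locus on chromosome 9 (110879870 to 110900530 and 110798166 to 110803754). They had 2.74 FPKM in 2i/LIF and 10.4 FPKM in serum/LIF, and 0.241 and 3.06 FPKM, respectively. Aplp1, next to Kirrel2 on chromosome 7 (30434982 to 30445535), had 20.6 FPKM in 2i/LIF and 75.9 FPKM in serum/LIF. Kndc1, near Utf1 on chromosome 7 (139894696 to 139941537), had 0.570 FPKM in 2i/LIF and 8.03 FPKM in serum/LIF, and Itgb7, near Rarg on chromosome 15 (102215995 to 102231944), had 2.51 and 12.8 FPKM. The other genes at these places were not counted, so the values do not show how often neighbors were higher together. Whether reads that run past the end of a gene add to its neighbor was not tested.

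Among the lower genes, Kit, the receptor of stem cell factor, had 56.7 FPKM in 2i/LIF and 10.9 FPKM in serum/LIF, with 17.0 FPKM in the +dox cells and 4.79 FPKM at 24 h of withdrawal. Trpm1, a cation channel gene on chromosome 7 (64153835 to 64269775), had 64.4 FPKM in 2i/LIF and 2.62 FPKM in serum/LIF. Saa3, an acute phase gene, had 2019 FPKM in 2i/LIF and 21.2 FPKM in serum/LIF, with 65.2 FPKM in the +dox cells and 140.2 FPKM at 24 h. Fibroblasts express Saa3 when stimulated, and their listed genes were lower in the same conditions; their part was not tested.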
